A study of Mus musculus with 16 samples.

Results

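Galectins are small lectins that bind galactose-bearing glycans. The 5 genes followed here were chosen by gene symbol as a small family group: Lgals1, Lgals3, Lgals8 and Lgals9, which encode galectins, and Lgals3bp, which encodes a secreted glycoprotein that binds galectin-3 and is not itself a galectin. All 5 were present among the 18167 genes of the spinal cord expression table, and each was followed in all 16 mice.

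The mice carried a human profilin 1 transgene driven by the mouse prion promoter vector MoPrP.Xho. Mutant mice were of the line Tg(Prnp-PFN1*G118V)838Kiaei/J on C57BL/6N, a model of amyotrophic lateral sclerosis. Comparison mice, of the line Tg(Prnp-PFN1)850Kiaei/J on C57BL/6N, carry the wild-type human protein. Each genotype was a single transgenic line, and mice without a transgene were not used here. All mice were labelled male. The 4 groups were 3 young wild-type transgenic mice at 50 days (WY), 3 presymptomatic mutants at 50 days (MY), 5 old wild-type transgenic mice (WO) and 5 mutants at end stage (MO), when they could no longer right themselves. WO1, WO2 and WO3 were 190 days old, and WO4 and WO5 were 294 days old. MO1 to MO5 were 198, 190, 245, 224 and 175 days old. Libraries were stranded mRNA libraries from whole spinal cord, 1 mouse each. Batch 2 held WO4, WO5, MO4 and MO5, and batch 1 held the other 12. Age and batch cannot be told apart within WO, and WY and MY had no mouse in batch 2.

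Galectin-1, galectin-3, galectin-8 and galectin-9 are made in the cytosol and leave the cell without a signal peptide. Outside the cell they cross-link glycoproteins, and inside it galectin-3, galectin-8 and galectin-9 gather on lysosomes whose membrane has been torn, where the lumenal glycans become exposed. In the nervous system, galectin-3 is best known as a product of activated microglia, the resident macrophages of the cord.

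Values are log2(1 + FPKM), where FPKM is fragments counted per length of transcript and per size of library, adjusted by the authors for library batch. FPKM values given below were taken back from these values, with results under 0 set to 0. The expression table holds no fragment counts, so the number of fragments behind each value cannot be given. A gene is said to have passed the test when its false discovery rate (FDR) from limma over all 18167 genes was at most 0.05 and the fold change at least 1.5, which is 0.585 on the log2 scale.

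Markers of spinal cord tissue were present in every group. Mean FPKM in WY was 1350 for the neuronal gene Snap25, 8520 for the myelin gene Mbp, 1060 for the astrocyte gene Gfap and 10.6 for Chat, which marks cholinergic neurons. Mbp stood apart in WO4, at 5.36 on the log2 scale, against 12.16 to 14.22 in the other 15 mice. MO5 did not match its male label. Its Xist level was 3.21, and none of the other 15 mice exceeded 0.37. Its Ddx3y level was 1.95, and all 15 others had 4.06 or more. The limma differences of the 5 genes from WO to MO, from MY to MO, from WY to WO and in the interaction are therefore also given without MO5 or without WO4, where the groups hold these mice; exact tests, correlations and most list counts are given only with both.

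Galectin-3 was the member with the largest difference between end-stage mutants and the other mice. Lgals3 lies on chromosome 14 at chr14:47367751-47386160 on the plus strand of GRCm38 and is annotated as protein-coding. Its log2 level was 2.24, 2.19 and 2.44 in WY1 to WY3, and 2.42, 2.19 and 2.23 in MY1 to MY3. It was 2.02, 2.50, 2.74, 1.89 and 1.36 in WO1 to WO5. In MO1 to MO5 it was 5.01, 5.67, 5.93, 5.13 and 5.08. Every end-stage mutant stood above every other mouse, and the other 3 groups overlapped one another. MO3 was highest among all mice and WO5 lowest.

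As FPKM, mean Lgals3 was 3.90 in WY, 3.87 in MY, 3.53 in WO and 41.6 in MO. On the log2 scale the means were 2.29 ± 0.13 (SD, n = 3), 2.28 ± 0.12 (n = 3), 2.10 ± 0.54 (n = 5) and 5.36 ± 0.41 (n = 5). From WO to MO the log2 difference was 3.26 (SE 0.27, limma FDR 2.32e-05), a 9.59-fold higher level of FPKM + 1. From MY to MO it was 3.08 (SE 0.21, limma FDR 0.000203). Without MO5 these differences were 3.33 (FDR 0.000105) and 3.15 (FDR 0.00069), and from WO without WO4 the difference was 3.21 (FDR 0.000117). Lgals3 ranked 11 of 18167 by log2 difference from WO to MO. The 2 comparisons share the MO mice.

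Lgals3bp lies on chromosome 11 at chr11:118392751-118402092 on the minus strand and is also protein-coding. Its product binds galectin-3 and matrix proteins in the extracellular space. The log2 level was 3.75, 3.71 and 3.62 in WY1 to WY3, and 3.49, 3.93 and 3.65 in MY1 to MY3. In WO1 to WO5 it was 3.97, 3.85, 4.17, 3.41 and 3.49, and in MO1 to MO5 it was 6.45, 6.24, 6.46, 5.66 and 5.91. The end-stage mutants stood apart from all 11 other mice, with the lowest values of that group in MO4 and MO5, both of batch 2.

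Mean Lgals3bp was 3.70 ± 0.07 in WY (SD, n = 3), 3.69 ± 0.22 in MY (n = 3), 3.78 ± 0.32 in WO (n = 5) and 6.14 ± 0.35 in MO (n = 5). As FPKM these groups averaged 12, 12, 13 and 71.3. The log2 difference was 2.36 from WO to MO (SE 0.19, limma FDR 2.16e-05) and 2.45 from MY to MO (SE 0.19, limma FDR 0.000247). Without MO5 it was 2.42 (FDR 0.000104) and 2.51 (FDR 0.000753), and from WO without WO4 it was 2.27 (FDR 0.000108).

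Lgals9 lies on the minus strand of chromosome 11 at chr11:78962974-78984946. Its product, galectin-9, has a pair of glycan-binding domains in one chain and is known as a ligand of the immune receptor Tim-3, encoded by Havcr2. Its log2 level was 3.59, 3.19 and 3.25 in WY1 to WY3, and 3.21, 3.41 and 3.41 in MY1 to MY3. It was 3.20, 3.36, 3.17, 3.20 and 3.10 in WO1 to WO5 and 4.05, 4.18, 4.44, 4.19 and 4.07 in MO1 to MO5. Every MO mouse was above every other mouse, while WY, MY and WO overlapped.

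The Lgals9 means were 3.35 ± 0.22 in WY (SD, n = 3), 3.34 ± 0.12 in MY (n = 3), 3.21 ± 0.09 in WO (n = 5) and 4.18 ± 0.15 in MO (n = 5). Mean FPKM was 9.24, 9.17, 8.24 and 17.3. The level was higher by 0.98 on the log2 scale from WO to MO (SE 0.08, limma FDR 2.16e-05) and by 0.84 from MY to MO (SE 0.09, limma FDR 0.000622). Without MO5 the differences were 1.01 (FDR 9.24e-05) and 0.87 (FDR 0.00148), and from WO without WO4 the difference was 0.98 (FDR 0.00011).

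Lgals1, at chr15:78926725-78930465 on the plus strand, encodes galectin-1, which acts as a dimer and is made by many cell types. Its log2 level was 6.25, 5.94 and 6.28 in WY1 to WY3, and 5.98, 6.18 and 6.02 in MY1 to MY3. It was 6.33, 6.24, 6.45, 5.82 and 5.78 in WO1 to WO5 and 6.23, 7.13, 6.69, 7.0 and 6.83 in MO1 to MO5. All MO mice stood above all MY mice. MO1 lay within the WO and WY ranges, and the other 4 MO mice lay above every WO mouse.

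Mean Lgals1 was 6.15 ± 0.19 in WY (SD, n = 3), 6.06 ± 0.11 in MY (n = 3), 6.12 ± 0.31 in WO (n = 5) and 6.78 ± 0.35 in MO (n = 5), with mean FPKM of 70.7, 65.8, 69.9 and 111. It passed the test from WO to MO, at 0.65 (SE 0.18, limma FDR 0.0222), and from MY to MO, at 0.72 (SE 0.18, limma FDR 0.0214). Without MO5 these were 0.64 (FDR 0.0458) and 0.70 (FDR 0.0432). The call from WO to MO did not hold without MO2, at 0.56 (FDR 0.0536), without WO4, at 0.58 (FDR 0.0542), or without WO5, at 0.57 (FDR 0.0562). The call from MY to MO did not hold without MY1, at 0.68 (FDR 0.0851), or without MY3, at 0.69 (FDR 0.0779). Across all alternatives the limma FDR of Lgals1 ran from 0.00442 to 0.341 for WO to MO and from 0.00154 to 0.0851 for MY to MO.

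Lgals8, at chr13:12439415-12464944 on the minus strand, encodes galectin-8, another galectin with a pair of glycan-binding domains, which recruits autophagy receptors to torn vesicles. Its log2 level was 4.80, 4.84 and 4.75 in WY1 to WY3, and 4.89, 4.81 and 4.79 in MY1 to MY3. It was 4.87, 4.79, 4.73, 4.75 and 4.81 in WO1 to WO5 and 4.93, 4.92, 4.92, 4.93 and 4.86 in MO1 to MO5. All 16 mice lay within a narrow band, and 4 of the 5 MO mice were above every WO mouse, with MO5 below WO1.

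Mean Lgals8 was 4.79 ± 0.04 in WY (SD, n = 3), 4.83 ± 0.05 in MY (n = 3), 4.79 ± 0.05 in WO (n = 5) and 4.91 ± 0.03 in MO (n = 5). As FPKM the means were 26.7, 27.4, 26.7 and 29.1. The log2 difference from WO to MO was 0.12 (SE 0.04, limma FDR 0.0264), below the fold threshold, and from MY to MO it was 0.08 (SE 0.04, limma FDR 0.17). Without MO5 these were 0.14 (FDR 0.0241) and 0.10 (FDR 0.124), and from WO without WO4 the difference was 0.11 (FDR 0.0664). Lgals8 did not pass both thresholds in any comparison under any alternative.

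**Figure D1:**
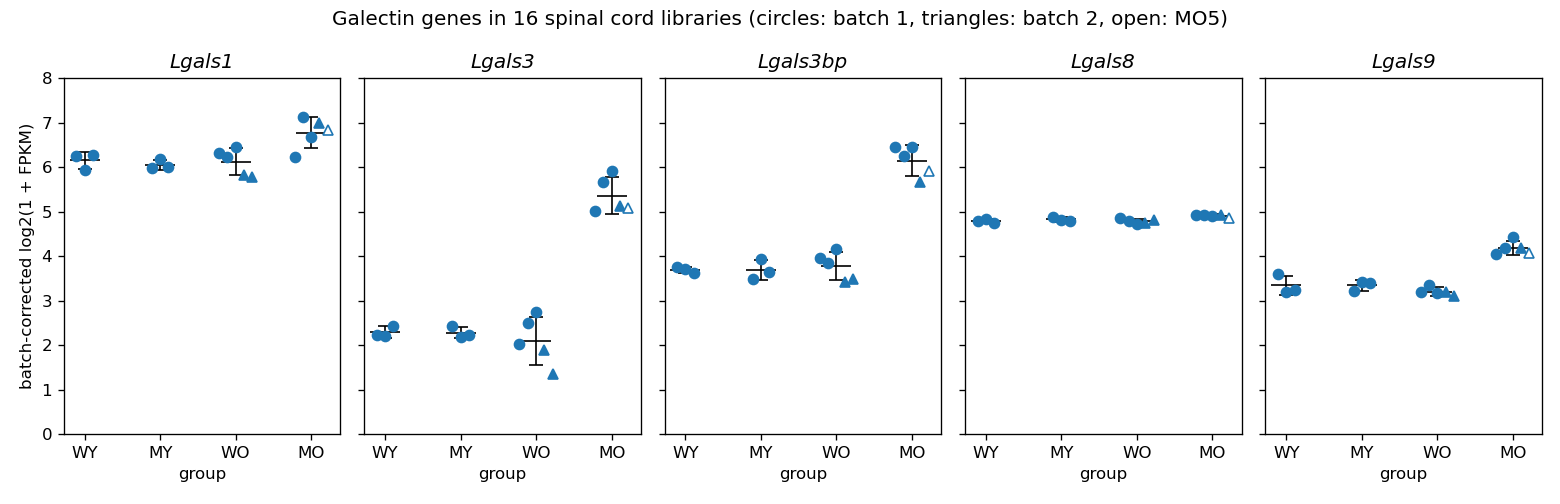
Batch-corrected log2(1 + FPKM) of the 5 genes in each of 16 mice, by group, with circles for batch 1, triangles for batch 2 and an open triangle for MO5. Horizontal lines show the mean and bars show 1 SD. For Lgals3, Lgals3bp and Lgals9 every MO mouse is above every other mouse, while MO1 for Lgals1 and MO5 for Lgals8 lie within the range of the other groups.

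From WO to MO, 4 of the 5 genes passed the test in the higher direction, against 742 of 18167 genes, or 4.08%. The same 4, Lgals1, Lgals3, Lgals3bp and Lgals9, passed from MY to MO, against 747 of 18167 genes, or 4.11%. The median log2 difference of the 5 was 0.98 from WO to MO and 0.84 from MY to MO, beside medians over all genes of 4e-04 and 0.0047. Every MO mouse was above all 11 other mice for 3 of the 5, Lgals3, Lgals3bp and Lgals9, and for 1377 of 18167 genes, or 7.58%. In whole-cord RNA, a change in the number of cells of a type and a change in RNA per cell cannot be told apart.

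Exact permutation tests of the difference of means gave a raw two-sided p of 0.00794 from WO to MO for Lgals3, Lgals3bp and Lgals9, the smallest that 5 against 5 mice can give. For Lgals1 the exact p was 0.0317 and for Lgals8 it was 0.0159. From MY to MO the exact p was 0.0357 for Lgals1, Lgals3, Lgals3bp and Lgals9, the smallest that 3 against 5 mice can give, and 0.0714 for Lgals8. These belong to 20 such tests, unadjusted, of which 9 were at or below 0.05.

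The difference from WO to MO was then taken within each batch. Lgals3 was higher in MO by 3.12 in batch 1 (3 against 3 mice) and by 3.48 in batch 2 (2 against 2 mice). For Lgals3bp the values were 2.39 and 2.33, and for Lgals9 they were 0.98 in both. The Lgals8 values were 0.13 and 0.12. Lgals1 differed most between batches, at 0.34 in batch 1 and 1.12 in batch 2, and in batch 1 alone it did not pass the test (limma FDR 0.341). From MY to batch 1 MO mice the differences were 3.25 for Lgals3, 2.69 for Lgals3bp, 0.88 for Lgals9, 0.62 for Lgals1 (limma FDR 0.0809) and 0.09 for Lgals8.

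Comparing WY with WO asked whether the 5 genes differ between young and old mice without the mutation. None of the 5 passed the test in limma, none had an unadjusted p under 0.05 (13.5% of all genes did), and none was at or below 0.05 in the exact test. Over all genes, 46 of 18167 genes passed in either direction, or 0.253%. The log2 differences from WY to WO were -0.03 for Lgals1, -0.19 for Lgals3, 0.08 for Lgals3bp, -0.00 for Lgals8 and -0.14 for Lgals9, with exact p-values of 0.929, 0.607, 0.714, 0.893 and 0.321. Their 95% intervals reached from -0.42 to 0.36 for Lgals1, from -0.82 to 0.44 for Lgals3 and from -0.36 to 0.08 for Lgals9. Within batch 1, the differences were 0.18 for Lgals1, 0.13 for Lgals3, 0.30 for Lgals3bp, 0.00 for Lgals8 and -0.10 for Lgals9. Without WO4 they were 0.044 for Lgals1, -0.135 for Lgals3, 0.175 for Lgals3bp, 0.006 for Lgals8 and -0.139 for Lgals9, with limma FDRs of 0.686 to 0.98. The count of 46 genes became 26 without WO2, 27 without WO3, 23 without WY1, 30 without WY2 and 7 without WY3.

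Comparing WY with MY asked whether the mutation was accompanied by a difference before symptoms. None of the 5 passed the test in limma, and none had an unadjusted p under 0.05 (7.16% of all genes did). The exact test cannot go below 0.1 with 3 against 3 mice, and the members gave exact p-values from 0.5 to 1. The log2 differences were -0.10 for Lgals1, -0.01 for Lgals3, -0.01 for Lgals3bp, 0.04 for Lgals8 and -0.00 for Lgals9. The 95% interval for Lgals3 ran from -0.23 to 0.21 and that for Lgals9 from -0.29 to 0.29. Over all genes, 1 of 18167 genes passed in either direction, or 0.0055%, and this count was 2 without MY1, 3 without MY2, 5 without WY1, 3 without WY2 and 4 without WY3.

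The interaction asked whether the difference between young and old was unequal in mutant and wild-type transgenic mice. The larger rise in the mutants was 3.27 for Lgals3 (SE 0.37, limma FDR 7.01e-05), 2.37 for Lgals3bp (SE 0.27, limma FDR 7.01e-05) and 0.98 for Lgals9 (SE 0.14, limma FDR 0.000319). These 3 of the 5 passed, against 845 of 18167 genes in this direction, or 4.65%, and 175, or 0.963%, passed in the other direction. The counts in these directions over all genes were 715 and 277 with quantile normalization, 730 and 78 without WY1, and 926 and 366 without WY2. Lgals1, at 0.75 (SE 0.27, limma FDR 0.0678), and Lgals8, at 0.09 (SE 0.06, limma FDR 0.317), did not pass. Lgals1 passed with quantile normalization, at 0.70 (FDR 0.0461), without MO1, at 0.88 (FDR 0.0136), without WO3, at 0.83 (FDR 0.046), and without WY2, at 0.86 (FDR 0.0471), and over all alternatives its limma FDR ran from 0.0136 to 0.317. Without MO5 the interaction was 3.34 for Lgals3 (limma FDR 0.000145), 2.43 for Lgals3bp (limma FDR 0.000145) and 1.01 for Lgals9 (limma FDR 0.000477), while Lgals1, at 0.73 (limma FDR 0.093), and Lgals8, at 0.10 (limma FDR 0.245), did not pass. Without WO4 it was 3.22 for Lgals3 (limma FDR 0.000202), 2.28 for Lgals3bp (limma FDR 0.000156) and 0.98 for Lgals9 (limma FDR 0.00076), while Lgals1, at 0.67 (limma FDR 0.108), and Lgals8, at 0.08 (limma FDR 0.424), did not pass.

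**Figure D2:**
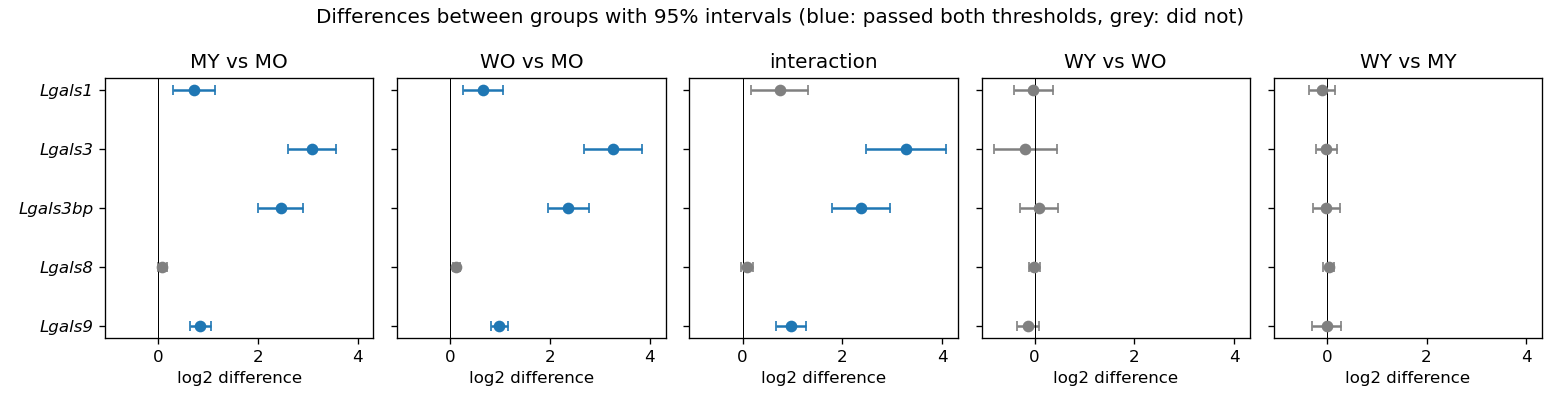
Log2 differences of the 5 genes in 4 comparisons and the interaction, with 95% intervals, in blue where both thresholds were passed. Lgals3, with 3.08 from MY to MO and 3.26 from WO to MO, has the largest values, and all points of the comparisons WY vs WO and WY vs MY have intervals that include 0.

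FPKM is scaled by transcript length, so levels can be ordered between genes on the log2(1 + FPKM) scale. In WY, MY and WO the order of levels was Lgals1, Lgals8, Lgals3bp, Lgals9 and Lgals3, and no range of mice overlapped that of its neighbour. In MO the order was Lgals1, Lgals3bp, Lgals3, Lgals8 and Lgals9. There Lgals1 was above Lgals3bp in 4 of 5 mice and Lgals3bp above Lgals3 in 5 of 5, although the ranges of both pairs overlapped. Lgals3 thus had the lowest level of the 5 in each of the other groups and stood above Lgals8 in all 5 MO mice.

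Within the group of 5, levels over the 16 mice were most alike for Lgals3 and Lgals3bp, with a Pearson r of 0.974, and this was 0.556 after group means were subtracted. After subtraction the highest r was that of Lgals1 with Lgals3, at 0.561. The r of Lgals3 with Lgals9 was 0.958 and 0.431 after subtraction, and that of Lgals1 with Lgals8 was 0.537 and -0.131. These points share their groups, batches and libraries, so r is given only as a description.

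Across all genes, those most like Lgals3 over the 16 mice included Clec7a (r = 0.992), Trem2 (0.991), Cnn3 (0.991) and Gusb (0.991), and r for these was 0.84 to 0.874 after group means were subtracted. Clec7a encodes the receptor dectin-1, Gusb encodes a lysosomal enzyme, and Trem2 encodes a microglial receptor. For Lgals3bp they were Lilrb4a (0.994), C1qb, Lyn, Ly9 and Mpeg1 (0.993 each), genes known from macrophages and other leukocytes. For Lgals9 they were Slamf6 (0.983), Fxyd1 (0.981), Gpr183 (0.979), Rab29 (0.979) and Bst2 (0.978).

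Lgals1 had a different set of nearest genes: Ccnb2 (0.947), Rpl15 (0.947), Ifi27l2a (0.943), Rpl12 (0.941) and Ssr4 (0.941). Rpl15 and Rpl12 encode ribosomal proteins. After group means were subtracted, r for Lgals1 was 0.914, 0.913, 0.865, 0.887 and 0.897. The genes were picked by r over the same 16 mice, which includes the part within groups, so the values after subtraction are no separate support. For Lgals8 the nearest were 4930550C14Rik (0.884), Trim21 (0.877), Usp43 (0.873), Casp8 (0.872) and Ascl4 (0.854).

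The other galectin family genes in the table were Lgals2, Lgals4, Lgals6, Lgals7, Lgals12, Lgalsl and Grifin. Of these 7, Grifin, a galectin-related gene best known from the lens, passed from WO to MO, at 0.84 (SE 0.15, limma FDR 0.00228), and the other 6 did not pass. Its level was low throughout, with a mean FPKM of 0.958 in WO and 2.59 in MO. The most abundant of the 7 was Lgalsl, with a mean FPKM of 18.6 in WO and 21.5 in MO and a log2 difference of 0.20 (limma FDR 0.0496), below the fold threshold. Lgals6, Lgals7 and Lgals12 had group means of at most 0.236 FPKM. Lgals4 and Lgals6 are near-identical copies, and reads may be shared between them. The median difference of the 7 from WO to MO was 0.12, and their summed FPKM was 21.9 to 25.8 in WO mice and 25.5 to 31.7 in MO mice. Over all genes, 742 of 18167, or 4.08%, passed in the higher direction from WO to MO. This share was 4.11% from MY to MO and 4.65% in the interaction. Counts of genes that passed in the higher direction, in this list and those below, are to be read against these shares.

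Galectins act by binding glycoproteins, and 16 described partners were in the table. Of these, 8 passed from WO to MO, all higher in MO, with a list median of 0.56 beside 4e-04 over all genes. The 3 largest differences were 2.73 for Trem2 (limma FDR 2.16e-05), 2.16 for Lag3 (limma FDR 1.46e-05) and 1.68 for Ptprc, which encodes CD45 (limma FDR 2.55e-05). The other 5 were Cd44 at 1.64, Cd9 at 1.5, Havcr2 at 1.34, Itgam at 0.99 and Mertk at 0.63. The count was 7 in batch 1 alone and 8 without MO5. It was also 7 without MO1, without WO4 or without WO5, where Mertk did not pass, at 0.51, 0.58 and 0.56. With all mice, P4hb, Itgb1, Spn, Nrp1, Tlr4, Lamp1, Lamp2 and Cd47 did not pass both thresholds. The part of microglia or other immune cells in the levels of the partners was not tested.

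From MY to MO, 9 of the 16 partners passed, the same 8 and Tlr4 at 0.65 (limma FDR 0.00116), and the same 9 passed in the interaction, where Mertk did not pass without MY1 (limma FDR 0.0534), MY3 (0.0584) or WY1 (0.0711). From WY to WO, Cd44 fell by 0.67 (limma FDR 0.0239) and Cd9 fell by 0.61 (limma FDR 0.00581). Cd44 did not pass there without WO1, WO2, WO5, WY1, WY2 or WY3, each left out alone (limma FDR 0.0516 to 0.106), and Cd9 did not pass without WY3, at -0.58 (limma FDR 0.0435). Their interaction values were 1.86 for Cd44 (limma FDR 1.68e-05) and 1.77 for Cd9 (limma FDR 0.00014). The most abundant partner was Lamp1, a lysosomal membrane glycoprotein, with a mean FPKM of 342 in WO and 420 in MO and a log2 difference of 0.30 (limma FDR 0.000359), below the fold threshold.

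Cells respond to torn lysosomes with autophagy receptors, nutrient-sensing kinases and membrane repair proteins. None of 22 genes of this response passed in limma from WO to MO, where 8 had an unadjusted p under 0.05. Over all genes the share with such a p was 38.5% from WO to MO, and the counts of p under 0.05 given for lists below are to be read against it. Their log2 differences ran from -0.31 to 0.25 with a median of -0.02. None passed in limma from MY to MO, from WY to WO or in the interaction, where 9, 3 and 7 had an unadjusted p under 0.05, beside 36.7%, 13.5% and 31.1% of all genes. The most abundant of them was Sqstm1, which encodes the autophagy receptor p62, with a mean FPKM of 264 in WO and 314 in MO. Its log2 difference from WO to MO was 0.25 (SE 0.05, limma FDR 0.00527), below the fold threshold; it was chosen here after its values were seen.

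Galectin ligands are built by enzymes that branch N-glycans or O-glycans and add galactose. Of 15 such genes, 2 passed from WO to MO: B4galt1, a galactosyltransferase, at 0.95 (SE 0.13, limma FDR 0.000387), and Gcnt1, which branches O-glycans, at 0.93 (SE 0.10, limma FDR 0.000106). Both also passed from MY to MO, at 1.02 (limma FDR 0.00225) and 0.89 (limma FDR 0.00149), and in the interaction. The list median from WO to MO was 0.14, and summed FPKM was 178 to 184 in WO mice and 178 to 185 in MO mice. Of 9 genes for adding or removing sialic acid, which caps galactose, none passed in limma from WO to MO (4 with an unadjusted p under 0.05), with differences from -0.22 to 0.08 and a median of -0.07.

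Lgals9 and Lgals3bp are known to respond to interferons. Of 12 interferon-stimulated genes, 10 passed from WO to MO, all higher in MO, with a median difference of 0.90. The 3 largest were 1.96 for Bst2 (limma FDR 2.16e-05), 1.93 for Ifi27l2a (limma FDR 0.00241) and 1.06 for Irf7 (limma FDR 0.000159). Isg15, Ifit1, Ifit3, Irf9, Oasl2, Usp18 and Mx1 were higher by 0.59 to 0.99. Mx1, at 0.59, did not pass without MO2, MO5, WO4 or WO5, at 0.50 to 0.57. From MY to MO 10 of the 12 passed, where Isg15 did not pass without MY1 or MY3 and Rsad2 did not pass without MO2 or MY2, while Mx1 did so without MO1, MO3 or MY2. In the interaction 11 passed. Of these Ifi27l2a, at 1.93, did not pass there without MO2, MO4, MO5, MY1, MY3, WO4, WO5, WY1 or WY3, each left out alone (limma FDR 0.0557 to 0.114), Mx1 did not without MO2, at 0.55, and Irf9 did not without WY1, at 0.50. The count from WO to MO was 9 without MO5, 9 with quantile normalization and 7 in batch 1 alone. Summed FPKM of the 12 was 33.0 to 47.0 in the young mice, 29.4 to 43.7 in WO and 79.5 to 110 in MO, and Bst2 was the most abundant in MO.

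Markers of cell types were read beside these results. Of 8 microglial markers, 6 passed from WO to MO, all higher in MO, among them C1qa at 2.82, Aif1 at 1.75, Csf1r at 1.28, Cx3cr1 at 1.14 and Itgam at 0.99. P2ry12, at 0.10, and Tmem119, at 0.49, did not pass. Itgam is also among the galectin partners. Their summed FPKM was 193, 182 and 195 in WY1 to WY3, and 181, 195 and 188 in MY1 to MY3. In WO1 to WO5 it was 204, 212, 218, 160 and 154, and in MO1 to MO5 it was 588, 743, 874, 537 and 568. All MO mice were above all others, with MO3 highest, as for Lgals3. The most abundant in MO was C1qa, with a mean FPKM of 40.7 in WO and 296 in MO.

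All 8 markers of activated microglia passed from WO to MO: Cst7 at 4.78, Gpnmb at 4.39, Clec7a at 4.11, Cd68 at 3.22, Itgax at 3.05, Lpl at 2.47, Spp1 at 1.44 and Axl at 1.07. Their median was 3.14. In WO4 and WO5, of batch 2, adjusted levels were near or below 0: Cst7 at -0.408 and -0.124, and Itgax at -0.27 and -0.318. Clec7a was 0.172 and 0.084 there, and Gpnmb 0.338 and 0.233. All 8 markers passed under every alternative, batch 1 alone among them. Their summed FPKM was 161, 162 and 166 in WY1 to WY3, and 171, 176 and 166 in MY1 to MY3. It was 196, 185, 180, 125 and 133 in WO1 to WO5 and 481, 711, 922, 432 and 514 in MO1 to MO5. Spp1 was the most abundant in each group. The part of microglial number or state in the levels of the galectin genes was not tested.

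Markers of other immune cells were low. None of 4 border macrophage markers (Mrc1, Cd163, Lyve1 and Pf4) passed in limma from WO to MO (2 with an unadjusted p under 0.05), with summed FPKM of 0.895 to 1.92 in WY, MY and WO and 1.86 to 2.69 in MO, and Pf4 most abundant. None of 6 monocyte and T cell markers (Ccr2, Ly6c2, Plac8, Cd3e, Cd3g and Cd2) passed in limma, where 2 had an unadjusted p under 0.05, and their summed FPKM was at most 0.875 in any mouse. By mean FPKM the most abundant was Plac8 in WY, MY and WO and Ly6c2 in MO, at 0.187. With a pseudocount of 0.1 in place of 1, 2 border macrophage markers and 1 monocyte and T cell marker passed.

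Of 6 astrocyte markers, Gfap at 1.60, Aqp4 at 0.83 and Aldh1l1 at 0.69 passed from WO to MO, and Slc1a3 at 0.53, Gja1 at 0.26 and Slc1a2 at 0.16 did not. Summed FPKM was 1750, 1690 and 1630 in WY1 to WY3, and 1540, 1570 and 1510 in MY1 to MY3. It was 1220, 1240, 1330, 1380 and 1150 in WO1 to WO5 and 2700, 3490, 3130, 2590 and 2780 in MO1 to MO5, with Gfap most abundant. From WY to WO, Aqp4 fell by 0.65 (limma FDR 0.0281), and it did not pass without WO2, WO3, WO5, WY1, WY2 or WY3, each left out alone (limma FDR 0.0594 to 0.13). Gfap passed there without WO4, at -0.59 (limma FDR 0.028), and with all mice it did not, at -0.54. The part of astrocytes in the levels of the galectin genes was not tested.

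Of 6 motor neuron markers, Chat passed from WO to MO in the lower direction, in which 94 of 18167 genes, or 0.517%, passed. Chat fell by 0.67 (limma FDR 3.13e-05), while Mnx1 at -0.50, Slc5a7 at -0.49, Isl2 at -0.42, Isl1 at -0.11 and Prph at -0.10 did not pass both thresholds. With a pseudocount of 0.1 in place of 1, 3 of the 6 passed in the lower direction from WO to MO, as did 257 of 18167 genes. Chat and Slc5a7 passed in the interaction, at -0.85 (limma FDR 0.00307) and -0.75 (limma FDR 0.0252). There Slc5a7 did not pass without WY1, at -0.49 (limma FDR 0.0361), without MY1, at -0.70 (limma FDR 0.07), or without MY2, at -0.73 (limma FDR 0.0555), and Mnx1 passed without WY3, at -0.65 (limma FDR 0.00636). Summed FPKM of the 6 averaged 103 in WO, with a lowest value of 96.1, and was 71.3 to 96.5 in MO, with Prph most abundant. None of 6 neuronal markers (Snap25, Syt1, Rbfox3, Slc17a6, Gad1 and Tubb3) passed both thresholds in limma, although 5 had an unadjusted p under 0.05. With quantile normalization, 1 of these 6 markers passed in the lower direction. Their differences were -0.41 to 0.04, with summed FPKM of 2160 to 2400 in WO and 1650 to 1860 in MO.

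Among 6 oligodendrocyte markers, Mog fell by 0.77 from WY to WO (limma FDR 0.0178) and Cldn11 fell by 0.86 (limma FDR 0.00112). Mog did not pass there without WO1, WO3, WY1, WY2 or WY3, each left out alone (limma FDR 0.0516 to 0.103). From WO to MO the log2 difference was 1.55 for Mbp (SE 1.42, limma FDR 0.479), 0.41 for Cldn11 and -0.30 for Mog, and none of these passed both thresholds. Without WO4, whose Mbp level stood apart, the Mbp difference was 0.03 (SE 0.57, limma FDR 0.982). Summed FPKM of the list was 9830, 9110, 9080, 4780 and 23400 in WO1 to WO5 and 6870, 7320, 7430, 21700 and 21200 in MO1 to MO5, with Mbp most abundant. The 3 highest sums were in WO5, MO4 and MO5 and the lowest in WO4, all of batch 2. Whether these batch 2 levels bear on the galectin values was not tested; the Lgals3, Lgals3bp and Lgals9 differences within batch 1 are given above.

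The remaining lists held no gene that passed in limma from WO to MO with all mice, although Rgs5, at -0.58, passed without MO3, MO4, MO5, WO4 or WO5, at -0.66 to -0.59. These were 6 endothelial and pericyte markers (Cldn5, Flt1, Pecam1, Pdgfrb, Kcnj8 and Rgs5), with differences of -0.58 to 0.29 and a median of -0.44. Next were 6 meningeal fibroblast markers (Dcn, Lum, Col1a1, Col1a2, Col3a1 and Igf2), with differences of -0.11 to 0.05 and a median of 0.03. A further list held 5 Schwann cell markers, with differences of -0.08 to 0.35 and a median of 0.07. Summed FPKM over WO and MO mice was 41.3 to 76.1 for the first, 15.6 to 22.6 for the second and 9.77 to 15.3 for the last, with Rgs5, Dcn and Drp2 most abundant. An unadjusted p under 0.05 was found for 5, 0 and 1 of them. In batch 1 alone 2 endothelial and pericyte markers passed in the lower direction.

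Of 5 sensory neuron markers, 4 were in the table, 2 of which had an unadjusted p under 0.05 in limma. Their summed FPKM was at most 1.02 in any mouse, and Trpv1 and Scn10a were near 0. Of 5 red blood cell markers, 4 were in the table (Hbb-bs, Hba-a1, Hba-a2 and Alas2), 1 of which had an unadjusted p under 0.05 in limma. Their summed FPKM was 61.1 to 96.8 in WO and 11.7 to 64.4 in MO, with MO1 lowest, Hba-a1 most abundant, and Hbb-bs and Hba-a2 near 0.

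**Figure D3:**
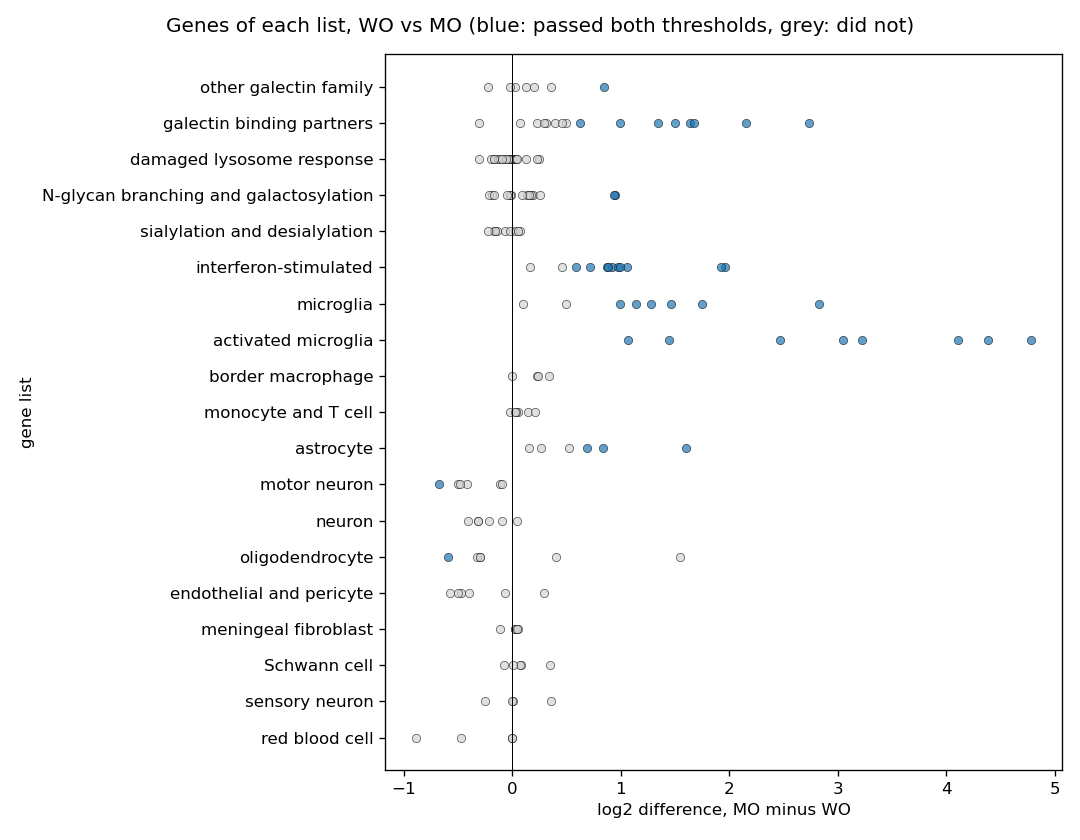
Log2 difference from WO to MO of each gene of each list, 1 point a gene, in blue where both thresholds were passed. All 8 activated microglia markers and 10 of 12 interferon-stimulated genes passed in the higher direction, and none of 22 damaged lysosome genes did.

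Promoter sequences, 250 bases before to 50 after the start of each gene, were taken from RefSeq on GRCm38.p6 and were at hand for 4 of the 5 genes: Lgals3, Lgals3bp, Lgals8 and Lgals9. The RefSeq start used lies inside the GENCODE span of the gene given above, farthest for Lgals3, where the bases before the start are chr14:47373610-47373859, and Lgals8, where they are chr13:12461739-12461988, so windows at other starts of these genes were not searched. Because interferon-stimulated genes were higher in MO together with Lgals9 and Lgals3bp, letters of interferon-related motifs were searched on both strands. Letters of the AP-1 and E-box motifs, which are not interferon motifs, were searched as well. All motifs were chosen after the promoters had been seen. The letters AANNGAAA, the core bound by interferon regulatory factors, occurred in 7857 of 32851 promoters, or 23.9%, and in 2 of the 4. The longer motif of the interferon-stimulated response element, GAAA followed by any 2 bases and GAAA again, which contains AANNGAAA, occurred in 3.44% of promoters and in 1 of the 4, Lgals9. The interferon-related letters TTCNNNGAA (8.3% of promoters) were in none of the 4 windows. Neither were TGANTCA of AP-1 (7.81%) and CACGTG of the E-box (7.15%). A match describes letters only and is not a site shown to be bound.

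The bases before the start of Lgals9 are shown because this promoter held most matches, with AANNGAAA at -151, -55 and 16 from the start, the latter 2 of which were also matches of the longer motif, on the opposite strand. The first line is chr11:78984925-78985174 and the second is chr11:78984891-78984920, around the match after the start. The last line is Lgals3bp, chr11:118401955-118401984, around its single match at -14. All are on the minus strand of GRCm38.p6, 5′ to 3′, with the letters of AANNGAAA or its reverse complement in capitals.
Lgals9 before the start: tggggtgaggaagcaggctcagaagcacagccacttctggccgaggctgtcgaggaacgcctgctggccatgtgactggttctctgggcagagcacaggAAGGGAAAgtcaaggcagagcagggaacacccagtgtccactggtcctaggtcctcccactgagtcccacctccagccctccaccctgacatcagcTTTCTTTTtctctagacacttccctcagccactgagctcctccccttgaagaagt
Lgals9 after the start: aatagctgtggTTTCTGTTtcctagctcag
Lgals3bp: tgttttctgaaAATCGAAActaggtgaggt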

How the data were processed

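RNA was measured in spinal cords of 16 mice. According to the submitters' processing notes, the authors used Trimmomatic for trimming, TopHat for alignment (genome build mm10) and Cufflinks for FPKM. Tool versions are not given in the sources used here. The deposited values are log2 of 1 + FPKM after removal of genes at 0 in many mice. They were adjusted by the authors for 2 batches with ComBat, whose covariates are not given. If group was a covariate, the adjusted values may carry group information in comparisons that mix batches. Whether they do was not tested. Of the values, 915 are below 0. All 16 columns were used. The deposited values hold no fragment counts, and library depth was not used here.

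Groups were compared with limma 3.58.1 in R 4.3.3 over all 18167 genes (mouse groups of each comparison alone, 4 group means for the interaction), with the FDR after Benjamini and Hochberg. Two-sided exact permutation tests came from SciPy 1.17.1, which doubles the smaller tail; another way of counting was added after seeing the data, as were the alternatives for gene lists and their genes. The fits were also tested on simulated data, and no result of that test is given here. Positions are from GENCODE M21.

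Named genes were the 5 members, every gene of lists of at most 8, and from longer lists the 3 called genes with the largest difference from WO to MO and those called in other comparisons. The 5 genes most correlated with each member over the 16 mice were also named. Other genes of a list were named after their values were seen, where a count was small. A few genes that these rules name are not reported here. Members and lists were chosen with earlier results of these data known. Alternatives were batch 1 alone, batch as a term, all mice in 1 fit, quantile normalization, a filter at a mean of 1, a pseudocount of 0.1, a block for the number in each title, and leaving out each mouse.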

Additional observations from a re-analysis of the deposited data

Results flagged for a closer look

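Among 10 groups of 5 mice examined (WO and MO for each of the 5 genes), 1 held a mouse far from the others of its group: MO5 for Lgals8, at 4.855 on the log2 scale, against 4.92 to 4.93 in the other 4 MO mice. Chance flags about 1 in 20 groups. MO5 is also the mouse whose Xist and Ddx3y levels do not match its male label.

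The difference between young and old mice was unequal in mutant and wild-type transgenic mice, by the interaction term in limma, for 3 of the 5 genes. The difference on the log2 scale was 3.27 for Lgals3, 2.37 for Lgals3bp and 0.98 for Lgals9. In wild-type transgenic mice the difference from WY to WO was -0.19, 0.08 and -0.14 and did not pass the test, and in mutants the difference from MY to MO was 3.08, 2.45 and 0.84.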

How the results depend on the processing

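Of 400 results of single members under an alternative, 360 kept their direction and their side of the threshold, 27 turned direction, 9 lost the call and 4 gained it. Lgals3, Lgals3bp and Lgals9 passed under every alternative in MY vs MO, WO vs MO and the interaction, with log2 differences from WO to MO of 3.08 to 3.60, 2.27 to 2.48 and 0.92 to 1.05. The 9 lost and 4 gained calls were all of Lgals1. It did not pass from WO to MO in batch 1 alone (0.343, limma FDR 0.341) or with the replicate number as a block (0.653, limma FDR 0.0567), nor from MY to MO in batch 1 alone or with batch as a term (0.622 in both, limma FDR 0.0809 and 0.0599). Its FDR over all alternatives lay between 0.00442 and 0.341 in WO vs MO, while in MY vs MO it lay between 0.00154 and 0.0851. The number of members called was 3 to 4 in MY vs MO, WO vs MO and the interaction and 0 in WY vs WO and WY vs MY throughout.

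All results that turned direction were small and not called. From WY to WO, batch 1 alone, batch as a term and the replicate block gave 0.184 for Lgals1, 0.129 for Lgals3 and 0.002 for Lgals8, and quantile normalization gave 0.004 for Lgals8. The exact p-values in batch 1 alone were 0.3, 0.6 and 1 for these 3 genes. Leaving out 1 mouse gave -0.141 to 0.053 for Lgals1, -0.013 to 0.175 for Lgals3bp and -0.027 to 0.017 for Lgals8. From WY to MY it gave -0.078 to 0.066 for Lgals3, -0.126 to 0.093 for Lgals3bp and -0.078 to 0.123 for Lgals9. The cause was not tested.

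With a pseudocount of 0.1, genes called numbered 1483 in MY vs MO (890 with a pseudocount of 1), 1529 in WO vs MO (836) and 1548 in the interaction (1020); a smaller pseudocount enlarges fold changes of low values by construction. In WY vs WO the count was 46 in the 2 groups fitted alone. It was 73 in batch 1 alone, 80 with batch as a term, 63 with the replicate block, 60 with a pseudocount of 0.1, 40 with quantile normalization, 35 with all 16 mice in 1 fit and 46 with the filter on low values, and 7 to 64 when 1 mouse was left out. In WY vs MY it was 4 with all 16 mice in 1 fit, 2 with the filter on low values (1 otherwise) and 1 to 5 when 1 mouse was left out. The cause was not tested. Exact tests at or below 0.05 numbered 9 of 20, 10 of 20 when absolute differences were counted (chosen after seeing the data), and 0 of 15 in batch 1 alone, where 3 against 3 mice cannot go below 0.1.

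Replicate numbers were tried as a block because the titles carry them. Deviations of mice with the same number from their group means correlated over all genes with r of -0.207 to 0.377. Mice with different numbers were not compared, so these r cannot decide whether the numbers mark pairs. With the block the Lgals3 difference from WO to MO was 3.262. The share of called genes that were higher in the interaction was 82.8%, and it was 72.1% with quantile normalization, 90.3% without WY1 and 71.7% without WY2. No alternative moved the median of all genes by over 0.1. Library depth was not used here, and the values hold no fragment counts, so no limit from depth is given.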
